A study of Mus musculus with 43 samples.

Results

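The comparison set wild-type full-grown oocytes, the mature germ cells at the end of growth in the ovary, beside wild-type morulae, the compacting embryos that precede the blastocyst. Its members were the 3 wild-type libraries of the oocyte table and the 10 wild-type libraries of the morula table, 13 of the 43 mouse samples in the series. The series addresses how histone H2A ubiquitination by Polycomb repressive complex 1 and the H3K4 methyltransferase MLL2 bear on H3K27me3 in oocytes, and its mutant oocytes and embryos were not used here. Both groups are labelled wild type, the oocytes from ovary and the morulae from embryo; strain, age, parental alleles and any Cre driver are not given in the labels. By the titles and the design text both are the controls of the set in which Pcgf1, Pcgf6 and Mll2 were mutated. Libraries were made from polyadenylated RNA by SMART-Seq v4 amplification and Nextera XT, a chemistry that does not mark strand. How many oocytes or embryos went into a library is not given for these groups. Nor is it given whether different animals or litters stand behind the replicates, so the spread between oocyte libraries may be technical. Among the morulae, 5 libraries had the Y-chromosome gene Ddx3y at 20.2 to 28.5 and 5 at 0 to 0.0100. The morula libraries are thus not all repeats of the same embryos, while the technical part of their spread is unknown.

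A growing oocyte stores RNA and proteins that carry the egg through meiosis, fertilisation and the first cleavages. After fertilisation much of this maternal RNA is degraded while the embryo switches on its own genome. By the morula stage the blastomeres have flattened against each other, the outer cells polarise and begin to form the trophectoderm, the epithelium that later makes the placenta, and the inner cells keep a pluripotency programme.

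Each library's deposited values were rescaled to sum to 1000000 over the 35815 genes listed in both tables, and all levels are on that scale. Because every level is a share of its library, fewer cells and less RNA per cell cannot be told apart. The oocyte values were deposited as RPKM and the morula values summed to 999474 to 999744 per library, as TPM do, so the tables were normalised separately and the stages cannot be told apart from the tables they stand in. For that reason no test was run between the stages and no p-value is given for them. A gene counted as higher in a stage when its median level plus 1 was at least 8 times that of the other stage and every library of the one lay above every library of the other. Of the shared genes, 15390 had a median of at least 1 in at least 1 stage and were kept, while 20425 fell under that filter. Sequencing depth is unknown, so no counting interval can be given. Between 12364 and 12481 genes reached a level of 1 in the oocyte libraries and between 11620 and 12417 in the morula libraries. Rank correlations of the kept genes ran from 0.991 to 0.992 between oocyte libraries, from 0.920 to 0.971 between morula libraries, and from 0.322 to 0.362 between an oocyte and a morula library.

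The stages differed over a large part of the transcriptome. Higher in oocytes were 1972 genes, 12.8% of the 15390 kept, and higher in morulae were 1420 genes, 9.23%. These 2 shares are the background against which each count of list members is to be read. Those 1972 genes held 40.8% of an oocyte library (median) and 0.875% of a morula library, while the 1420 genes held 1.07% of an oocyte library and 27.9% of a morula library. Without the ratio requirement, 42.4% of kept genes had every oocyte library above every morula library and 34.8% had the reverse, so separation of the libraries alone was common. The median log2 ratio of oocytes over morulae across kept genes was 0.17, with quartiles of -1.49 and 1.83. This median was -0.45 on the deposited values, 0.57 with median-ratio scaling and -0.08 with quantile normalization. The share of called genes that were higher in oocytes, 58.1%, was 44.7% on the deposited values (1426 genes against 1765). Log2 ratios here are of levels plus 1, depend on that added 1 where a stage is near 0, and are no bounds.

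**Figure D1:**
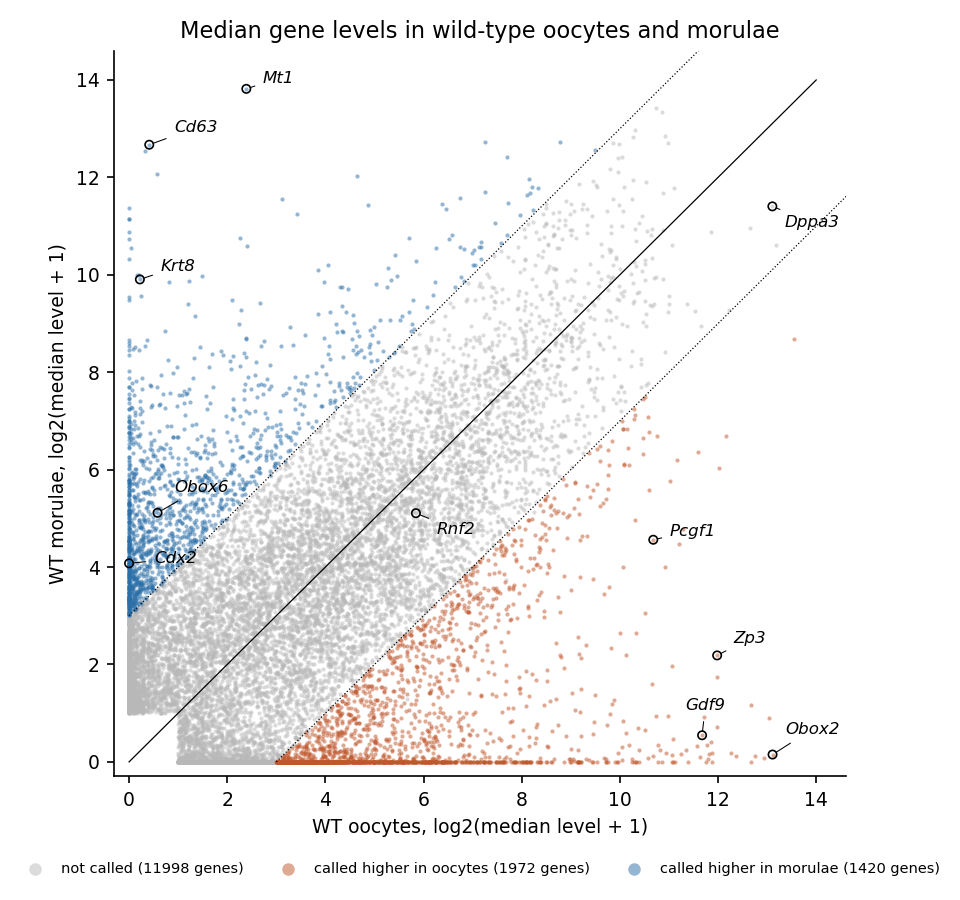
Each point is 1 of the 15390 kept genes, placed by log2 of its median level plus 1 in 3 wild-type oocyte libraries (x axis) and in 10 wild-type morula libraries (y axis); the dotted lines mark a ratio of 8 and colours mark the calls. Gdf9, Zp3, Obox2 and Pcgf1 lie in the oocyte corner, Mt1, Cd63 and Krt8 in the morula corner, and Rnf2 near the diagonal.

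Stricter classes separated genes present in 1 stage from genes present in both. At least 10 in every oocyte library and under 1 in every morula library were 721 genes (4.68%), which held 11.7% of an oocyte library. The reverse class had 424 genes (2.76%) and held 5.82% of a morula library. At least 10 in every library of both stages were 3258 genes (21.2%), with 61.8% of an oocyte and 80.3% of a morula library.

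The labelled stages were checked on 4 markers. Gdf9, a growth factor that the oocyte secretes to granulosa cells, was at 3497, 3268 and 3245 in the oocyte libraries and at 0 to 1.22 (median 0.461) in the morulae. Zp3, a zona pellucida protein that sperm meet first, was at 4048, 3578 and 4043 against 1.31 to 13.4 (median 3.55). Both were high in all 3 oocyte libraries and low in all 10 morulae, with no overlap. Krt8, a keratin of the first epithelium, was at 0.795, 0.165 and 0.15 in oocytes and at 327 to 1575 (median 958) in morulae. Cdx2, the transcription factor that directs trophectoderm fate, was listed at 0 in every oocyte library and lay at 9.11 to 24.7 (median 15.9) in the morulae. The markers therefore separated the groups in the direction of their labels in all 13 libraries.

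Most markers of other cells that a sample could hold were low, as were most shared genes. Of the 35815 shared genes, 12364 to 12481 reached 1 in an oocyte library, so a count of markers under 1 says little by itself. The share of all shared genes listed at 0 in every oocyte library was not counted. Of 18 granulosa and cumulus markers, 15 stayed under 1 in every oocyte library, and Amh, Foxl2 and Amhr2 were listed at 0 there. Cyp19a1, the aromatase of granulosa cells, was at 38.3, 33.1 and 33.4 in oocytes and listed at 0 in every morula library; the other 2 exceptions, Cyp11a1 and Kitl, reached 2.74 and 1.93. The summed level of that list ran from 39.7 to 45.1 in oocytes and from 11.6 to 25.5 in morulae, where Amhr2, an anti-Mullerian hormone receptor, gave 10.2 to 24.3 (median 14.9). Of 13 stroma and blood markers, 10 were listed at 0 in every oocyte library, and the list summed to 15.3 to 18.6 in oocytes and to 14.2 to 61.4 in morulae. Pecam1, an endothelial adhesion molecule, reached 12.6 in oocytes, and Cd68, a lysosomal protein of macrophages, 54.3 in morulae. Among 7 sperm transcripts, Prm2, a sperm protamine, was at 31.1, 36.8 and 33.7 in oocytes and at 0 to 1.79 (median 0) in morulae, and the list summed to 33.7 to 39.6 and to 1.71 to 9.70. The part of such cells in the results was not tested.

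The sequences before the start of 5 genes are shown because these genes are stage markers or lie at the extremes of the comparison: Zp3 and Obox2 in oocytes, Krt8, Cdx2 and Mt1 in morulae. They are the 250 bases before the start in the RefSeq promoter table for GRCm38.p6, 5′ to 3′ on the gene's strand, and lie at chr5:135979855-135980104 (plus strand), chr7:15388601-15388850 (plus strand), chr15:102004343-102004592 (minus strand), chr5:147307250-147307499 (minus strand) and chr8:94178839-94179088 (plus strand). Capitals mark matches on either strand to 9 short motifs: the E-box CANNTG, the NOBOX element TAATTG, the octamer ATGCAAAT of POU factors, the GC box GGGCGG, the TEAD element GGAATG, the AP-2 element GCCNNNGGC, the ETS element CCGGAAG, the NR5A element TCAAGGTCA and the TATA box TATAAA. Bases are counted back from that start. For Mt1 the gene table gives an earlier start, chr8:94178883, so most of its window lies within the annotated gene and is not upstream sequence of that gene model.
Zp3: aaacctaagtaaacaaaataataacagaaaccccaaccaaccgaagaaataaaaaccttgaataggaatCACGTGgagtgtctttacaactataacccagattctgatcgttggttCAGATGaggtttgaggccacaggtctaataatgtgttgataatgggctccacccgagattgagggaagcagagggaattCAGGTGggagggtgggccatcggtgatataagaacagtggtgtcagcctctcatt
Obox2: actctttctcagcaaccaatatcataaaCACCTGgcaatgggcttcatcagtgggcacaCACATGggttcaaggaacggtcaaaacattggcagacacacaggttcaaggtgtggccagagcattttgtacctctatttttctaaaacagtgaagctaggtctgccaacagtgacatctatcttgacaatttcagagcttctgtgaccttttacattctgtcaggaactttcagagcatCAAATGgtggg
Krt8: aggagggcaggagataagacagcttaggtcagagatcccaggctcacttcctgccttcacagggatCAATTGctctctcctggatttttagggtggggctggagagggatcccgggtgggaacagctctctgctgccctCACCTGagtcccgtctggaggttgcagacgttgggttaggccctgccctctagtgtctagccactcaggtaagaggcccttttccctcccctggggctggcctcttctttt
Cdx2: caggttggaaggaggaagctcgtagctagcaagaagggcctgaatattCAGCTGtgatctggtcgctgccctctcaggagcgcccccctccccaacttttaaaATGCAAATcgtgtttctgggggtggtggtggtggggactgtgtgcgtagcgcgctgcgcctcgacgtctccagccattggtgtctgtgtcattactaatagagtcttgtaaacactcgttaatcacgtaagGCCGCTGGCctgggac
Mt1: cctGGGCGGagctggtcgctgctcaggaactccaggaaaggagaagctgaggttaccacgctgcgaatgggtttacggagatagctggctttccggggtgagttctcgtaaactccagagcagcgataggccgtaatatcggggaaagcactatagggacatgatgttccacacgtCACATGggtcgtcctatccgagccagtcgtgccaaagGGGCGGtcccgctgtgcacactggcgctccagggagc

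Zp3 holds 3 E-boxes, of which the nearest, CAGGTG, spans bases 55 to 50 before the start, and Obox2 also holds 3, the nearest, CAAATG, at bases 11 to 6. FIGLA, an oocyte factor that drives the zona genes, binds E-boxes, and an E-box occurred in 66.2% of the 32851 promoters of the table, so these matches are common letters. Krt8 holds 2 E-boxes. An E-box also lies in Cdx2, CAGCTG at bases 202 to 197, and in Mt1, CACATG at bases 74 to 69. Cdx2 holds 1 octamer at bases 147 to 140, a motif found in 1.6% of promoters, and 1 AP-2 element at bases 16 to 8, found in 13.7%. Mt1 holds 2 GC boxes, at bases 247 to 242 and 37 to 32, found in 32.7% of promoters, and 17 CpG dinucleotides, against 5 in Zp3 and 1 in Obox2 and a median of 6 over all promoters. The NOBOX, TEAD, ETS, NR5A and TATA letters, which occurred in 7.17%, 12.6%, 6.91%, 0.387% and 12.4% of promoters, were in none of the 5 windows. Motif shares were not compared between genes higher in oocytes and genes higher in morulae. Of these genes 76.8% and 73.8% had an entry in the promoter table, against 76.5% of all kept genes. A match is a description of letters and shows no binding.

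The zona pellucida and the oocyte's secreted factors formed a list with every member on the oocyte side. All 7 of its genes were kept, and 7 of 7 were higher in oocytes, against 12.8% of all kept genes; their median log2 ratio was 9.74. The list summed to 10355 to 11833 in the oocyte libraries and to 3.19 to 14.1 in the morulae. Zp2, the zona protein that is cleaved after fertilisation, was at 2431, 1785 and 2177 in oocytes and at 0 to 1.46 (median 0.39) in morulae. Zp1, which links the zona filaments, was at 505, 489.5 and 523 against 0 to 0.671 (median 0.035). Bmp15, the partner of Gdf9, was at 1165, 1024 and 1053 against 0 to 1.09 (median 0.235), and Kit, the receptor through which granulosa cells signal to the oocyte, at 39.9, 44.7 and 44.2 against 0 to 0.881 (median 0.285). All 7 members had every oocyte library above every morula library, as did 42.4% of all kept genes.

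Maternal-effect genes, whose products the mother supplies for the first cleavages, were split. Of 23 kept, 14 were higher in oocytes (background 12.8%) and 0 in morulae (background 9.23%), with log2 ratios of members from -1.51 to 11.69. Btg4, an adaptor that brings the deadenylase to maternal mRNA, was at 3982, 3572 and 3776 in oocytes and at 0 to 1.7 (median 0.14) in morulae. Zbed3 and Nlrp5, members of the subcortical maternal complex, had medians of 3337 and 513 in oocytes and 0.886 and 0.2 in morulae. Padi6, also of that complex, was at 1694, 1482 and 1604 against 1.25 to 3.3 (median 2.02). Npm2, a chaperone that decondenses chromatin, had medians of 1711 and 0.926, and Zar1, which binds stored mRNA, 1051 and 0.02.

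Other members of the same list were well detected in morulae. Ooep, a scaffold of the subcortical complex, was at 4398, 4049.7 and 4147 in oocytes and still at 36.8 to 98.3 (median 65) in morulae, a log2 ratio of 5.97. Khdc3, which sits in the same complex, was at 855, 748 and 760.3 in oocytes and at 677 to 1073 (median 868) in morulae, and the stages overlapped; 47% of its annotated exon bases are shared with another gene. Dppa3, a factor that protects the maternal genome from demethylation, was at 8942, 8431 and 8820.1 against 2183 to 3519 (median 2711). Its libraries did not overlap, but its log2 ratio of 1.70 did not reach the ratio of 8.

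Transcription factors of the oocyte followed the zona genes. Of 12 kept in that list, 9 were higher in oocytes (background 12.8%) and 0 in morulae (background 9.23%), and the median log2 ratio was 6.27. Obox2, an oocyte homeobox gene, had the largest ratio of all called genes, with 9428, 8643 and 8843 in oocytes and 0 to 0.501 (median 0.11) in morulae. Nobox, a homeobox factor of follicle growth, was at 270.0, 295 and 237 against 0 to 0.0501 (median 0), and Lhx8, a LIM homeobox factor of early follicles, at 106, 112 and 110.4 against 0 to 1.45 (median 0.0751). Figla, the basic helix-loop-helix factor of the zona genes, kept some signal in morulae, at 119, 131 and 119 against 1.08 to 10.7 (median 7.41). Tbpl2, which replaces the TATA-binding protein in oocytes, was at 15.3, 15.8 and 15.6 and listed at 0 in every morula library. Foxo3, which holds follicles dormant, and Taf4b, a subunit of the general factor TFIID, were not called: their medians were 17.5 and 6.11, and 7.32 and 9.5.

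**Figure D2:**
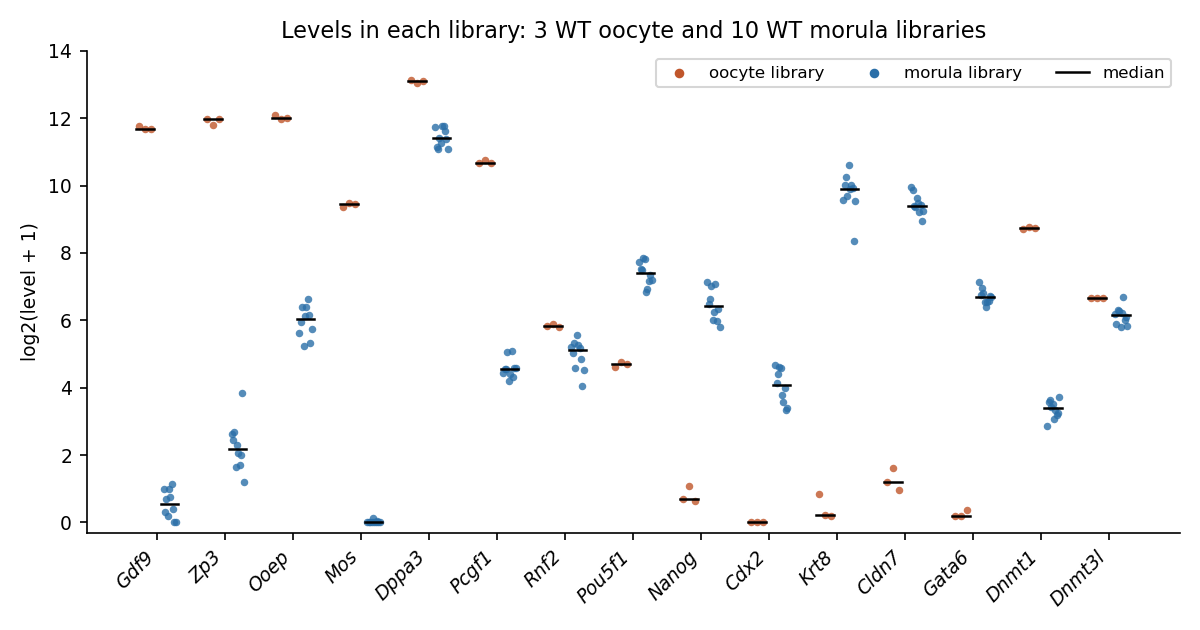
Log2 of the level plus 1 of 15 genes in each of the 3 wild-type oocyte and 10 wild-type morula libraries (points), with the median of each stage (lines). Gdf9, Zp3, Mos and Pcgf1 are high in each oocyte library and low in each morula library, Krt8, Cldn7 and Gata6 are the reverse, and Dnmt3l overlaps between the stages.

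Genes of meiosis were unevenly divided between the stages. Of 17 kept meiotic genes, 8 were higher in oocytes (background 12.8%) and 0 in morulae (background 9.23%), with a median log2 ratio of 2.95. Mos, the kinase that holds the egg at metaphase, was at 661, 707 and 692 in oocytes and at 0 to 0.1 (median 0) in morulae. Fbxo43, an inhibitor of the anaphase-promoting complex, had medians of 34 and 0.02, and Aurkc, a germline Aurora kinase, 565 and 4.88. Genes shared with mitosis were closer. Ccnb1, the cyclin of M phase, was at 1032, 1032 and 969 against 151 to 249.7 (median 172), and Cdk1, its kinase, at 126, 112 and 115 against 66.7 to 129 (median 105); only Cdk1 overlapped. Cdc20, an activator of anaphase, had medians of 81.6 and 215. Pttg1, the securin that holds sister chromatids together, was at 4953, 4794 and 4786 against 454 to 829.8 (median 618); its log2 ratio of 2.95 was just under the threshold and passed it, at 3.02, without morula replicate 1, 2, 3, 6 or 8.

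Fertilisation genes were likewise mixed, with 6 of 11 kept higher in oocytes (background 12.8%) and 1 in morulae (background 9.23%). Their median log2 ratio was 3.06, and on the deposited values 4 and 2 were called. Izumo1r, the egg receptor for sperm, was at 576, 578 and 553 in oocytes and at 0 to 0.0901 (median 0) in morulae. Wee2, a kinase that must be switched on to leave metaphase, had medians of 281 and 0, and Astl, the protease that hardens the zona, 124 and 0. Cd9, a tetraspanin that sperm-egg fusion needs and that many cells carry, lay above every oocyte library in all 10 morulae, at 263, 268 and 248 against 1353 to 2602 (median 1956). Its log2 ratio of -2.89 was under the threshold and passed it, at -3.47, on the deposited values. Tpst2, a tyrosylprotein sulfotransferase, was the member called higher in morulae, at 1.5, 2.07 and 0.868 against 15.9 to 40.3 (median 29.2).

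Factors that store or dismantle mRNA were called more often in oocytes, with 11 of 26 called that way (background 12.8%), 3 called higher in morulae (background 9.23%) and a median log2 ratio of 1.99. On the deposited values 7 were called higher in oocytes. Dazl, a germline RNA-binding protein, was at 427, 416 and 435 in oocytes and at 0 to 2.56 (median 0.701) in morulae. Germline versions of general factors had a like pattern: Pabpn1l, Pabpc1l and Eif4e1b, relatives of poly(A)-binding proteins and of the cap-binding protein, had medians of 186, 70.9 and 93.9 in oocytes and of 0, 0.0451 and 0.295 in morulae. Cnot6l and Cnot7, catalytic subunits of the CCR4-NOT deadenylase, were at 89.9, 102 and 106 against 1.43 to 3.33 (median 2.19) and at 288, 297 and 297 against 21.4 to 45.7 (median 30.9). Cnot7 was under the threshold on the deposited values, at 2.65, and with quantile normalization, at 2.98. Genes called the other way included Zfp36l2, which binds mRNA, and Zcchc11, which extends its end, with oocyte medians of 1.03 and 0.15 and morula medians of 19.8 and 10.1.

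The piRNA pathway, which silences transposons in the germline, had 10 of 17 kept members higher in oocytes (background 12.8%) and 0 in morulae (background 9.23%). Its median log2 ratio was 3.69. Henmt1, which methylates piRNA ends, was at 114, 118 and 126 in oocytes and at 0 to 0.27 (median 0) in morulae. Tdrd12, a Tudor-domain helicase, was at 498, 509.7 and 552 against 5.41 to 18.4 (median 10.5), and Gtsf1, a cofactor of Piwi proteins, at 2299.7, 2193 and 2303 against 35.7 to 125 (median 72). Mael, a protein of germ granules, was not called at 104, 126 and 107 against 7.29 to 88.7 (median 20.7), although the stages did not overlap.

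Gene families that are known for oocyte expression or were defined by name gave some of the highest levels of the oocyte libraries. Families of F-box genes named Fbxw, of Pramel and Pramef genes and of metallothioneins were added after their values were seen. Of 24 Fbxw genes, 17 were higher in oocytes (background 12.8%). The family summed to 26968 to 28674 in the oocytes and to 80.6 to 110.4 in the morulae. In order along the genome, 15 kept Fbxw genes with no other kept gene between them were called, from chr9:109139454 to 109790660 (GRCm38.p6). Fbxw24 was at 5391, 4852 and 5277 in oocytes and at 0 to 1.43 (median 0.0851) in morulae, and Fbxw28 at 3624, 3489 and 3756 against 0 to 1.02 (median 0.115). Fbxw2, a member outside that run, was the 1 called higher in morulae, at 1.03, 1.42 and 1.63 against 16.1 to 34 (median 22.1); with the second oocyte set described further on its log2 ratio was -2.53, under the threshold. Members of this run are close relatives, so reads could be shared between them.

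All 3 Oosp genes, which encode oocyte secreted proteins, both Omt2 genes and all 4 Oog genes were higher in oocytes. Oosp1 was at 3493, 3266 and 3473 in oocytes and at 0 to 0.441 (median 0) in morulae, and Omt2b at 6628, 6298 and 6548 against 0 to 4.21 (median 1.24). Of 12 kept Nlrp genes 11 were higher in oocytes (background 12.8%), Nlrp14 with 2042, 1523 and 1757 against 0 to 0.771 (median 0.28). Nlrp4c was the exception, at 6.97, 5.84 and 5.78 in oocytes and 8.73 to 43.9 (median 30.1) in morulae. Of 8 kept Oas1 genes 6 were higher in oocytes, 5 of them neighbours on chromosome 5, and Oas1h had medians of 1276 and 0. H1foo, the linker histone of the oocyte, was at 7818, 7849.9 and 7599 against 0 to 0.851 (median 0.0551). Gm813 was at 6803, 6368 and 6478 in oocytes and listed at 0 in every morula library. Vmn1r112 and Vmn1r139, receptor genes of the vomeronasal organ with identical values in all libraries, cannot be told apart; they were at 7.60 to 14.3 in oocytes and at 0 to 0.190 in morulae.

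Trophectoderm genes made the morula counterpart. Of 33 kept, 19 were higher in morulae, against 9.23% of all kept genes, and 0 in oocytes; the median log2 ratio was -3.47 and the list summed to 365 to 369 in oocytes and to 5584 to 11692 in morulae. Krt18, the partner of Krt8 in keratin filaments, was listed at 0 in every oocyte library and lay at 409 to 1954 (median 1279) in morulae. Keratins as a family were split: of 16 kept by name, 3 were higher in morulae and 3 in oocytes (background 12.8%). In 11 of the 16 every oocyte library lay above every morula library, against 42.4% of all kept genes. In 4 the reverse held, against 34.8%. Fabp3, a fatty-acid carrier, was at 0, 0.48 and 1.17 in oocytes and 3088 to 6262 (median 4319.6) in morulae. Aqp3, a water channel, was at 0, 0.0899 and 0 against 101 to 202 (median 150.1), and Tead4, the DNA-binding partner of YAP in outer cells, at 0.285, 0.39 and 0.165 against 26.7 to 44 (median 36.7).

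Some regulators of the outer cells were already present in oocytes. Tfap2c, an AP-2 factor of trophectoderm, was at 6.82, 7.22 and 9.19 in oocytes and at 44.8 to 75.5 (median 54.5) in morulae, and Gata3, a GATA factor of the same lineage, at 14.5, 18.7 and 16.9 against 80.9 to 163 (median 134); neither overlapped, and neither reached the ratio of 8 (log2 -2.75 and -2.92). Gata3 passed it without oocyte replicate 2, at -3.02. Yap1, the effector of Hippo signalling, was the reverse, at 32.3, 34 and 32.7 in oocytes and 15.6 to 28 (median 19.2) in morulae.

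Junction genes, which seal and couple the compacting cells, had 12 of 29 kept members higher in morulae (background 9.23%) and 0 in oocytes (background 12.8%). Their median log2 ratio was -2.24. Epcam, an epithelial adhesion molecule, was at 1.33, 1.51 and 0.809 in oocytes and at 357 to 1229 (median 939) in morulae. The tight-junction claudins Cldn7 and Cldn4 were at 1.3, 2.05 and 0.943 against 489 to 985 (median 676) and at 3.81, 2.79 and 3.28 against 501 to 1008 (median 717). Cldn6, a further claudin, had medians of 0 and 127. Of 10 claudins kept by name, 3 were higher in morulae (background 9.23%) and 3 in oocytes (background 12.8%). Their log2 ratios ran from -8.20 to 4.78. Adhesion genes that compaction itself depends on differed less. Cdh1, the E-cadherin that draws blastomeres together, was at 22.7, 24.1 and 24.8 in oocytes and at 65.3 to 119 (median 91.6) in morulae, and Ctnnb1, its beta-catenin partner, at 70.9, 72.2 and 68.3 against 63.4 to 106 (median 83.9), with overlap for Ctnnb1.

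Pluripotency genes lay more on the morula side, with 11 of 24 kept called higher there (background 9.23%) and 1 higher in oocytes (background 12.8%). Their median log2 ratio was -2.61. Nanog, a homeobox factor of the inner cells, was at 0.63, 1.12 and 0.554 in oocytes and at 55 to 139 (median 84.4) in morulae. Klf5 and Zfp42, zinc-finger factors of early embryos and stem cells, were at 0.045, 0.12 and 0.0449 against 143 to 247 (median 198) and at 0.48, 0.689 and 0.434 against 135 to 249.7 (median 206). Sox2, the partner of OCT4, was lower in level, at 0.135, 0.315 and 0.165 against 4.03 to 18.2 (median 10.4), and with the second oocyte set its log2 ratio was -2.86, under the threshold. Pou5f1, which encodes OCT4, was already at 23.6, 26 and 25 in oocytes and at 114 to 228 (median 170.1) in morulae, so its log2 ratio of -2.72 was under the threshold. Dppa5a, an RNA-binding protein of pluripotent cells, was among the 10 highest morula genes and also high in oocytes, at 2021, 2347 and 1742 against 4879 to 8530.0 (median 6693). Klf17 was the member on the oocyte side, at 168, 176 and 164 against 1.78 to 13.3 (median 3.16).

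Genes of the primitive endoderm, the later yolk-sac lineage, had 4 of 13 kept members higher in morulae (background 9.23%) and 2 in oocytes (background 12.8%), with a median log2 ratio of -1.76. On the deposited values 1 of 12 was called higher in oocytes. Gata6, the factor that opposes Nanog, was at 0.15, 0.135 and 0.285 in oocytes and at 83.1 to 139 (median 103) in morulae, so Gata6 and Nanog were both present in all 10 morula libraries. Sparc, a matrix protein, was at 0.27, 0.225 and 0.0449 against 2.32 to 31.4 (median 24.2). The other 2 on the morula side were P4ha2 and Pdgfra. Lamb1, a laminin chain, was higher in oocytes, at 138, 143 and 141 against 8.01 to 21.8 (median 16.2), a log2 ratio of 3.04 that was under the threshold in 5 alternatives, at 2.46 on the deposited values. Srgn, a proteoglycan core protein, was at 104, 111 and 104 against 0 to 3.86 (median 1.05).

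The highest morula levels and the largest ratios belonged to other genes. Mt1 and Mt2, metallothioneins that bind zinc, were at 4.24, 4.02 and 4.24 and 0.255, 0.15 and 0.27 in oocytes and at 12267 to 16287 (median 14439.5) and 4909.6 to 6801 (median 6000.2) in morulae; 73.5% of the exon bases of Mt2 are shared with another annotated gene. Cd63, a tetraspanin of late endosomes, had the largest ratio of the morula side, at 0.225, 0.33 and 0.554 against 5802 to 7378 (median 6519). Folr1, a folate receptor, and Bhmt, which remethylates homocysteine, were at 0.3, 0 and 0.15 against 720.3 to 1202 (median 1013) and at 0.06, 0 and 0 against 319 to 1080.3 (median 745). Apoc1, an apolipoprotein, was at 0.18, 0.195 and 0.18 against 554 to 1326 (median 760.4), and Tomm5, a subunit of the mitochondrial import pore, at 0.78, 0.12 and 0.12 against 759 to 1347 (median 1025). Mir692-2 and Mir692-3 were listed at 0 in oocytes and had the same 1471 to 2766 in morulae; their values are identical, most of their exon bases are shared with other genes, and no mature miRNA was measured.

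**Figure D3:**
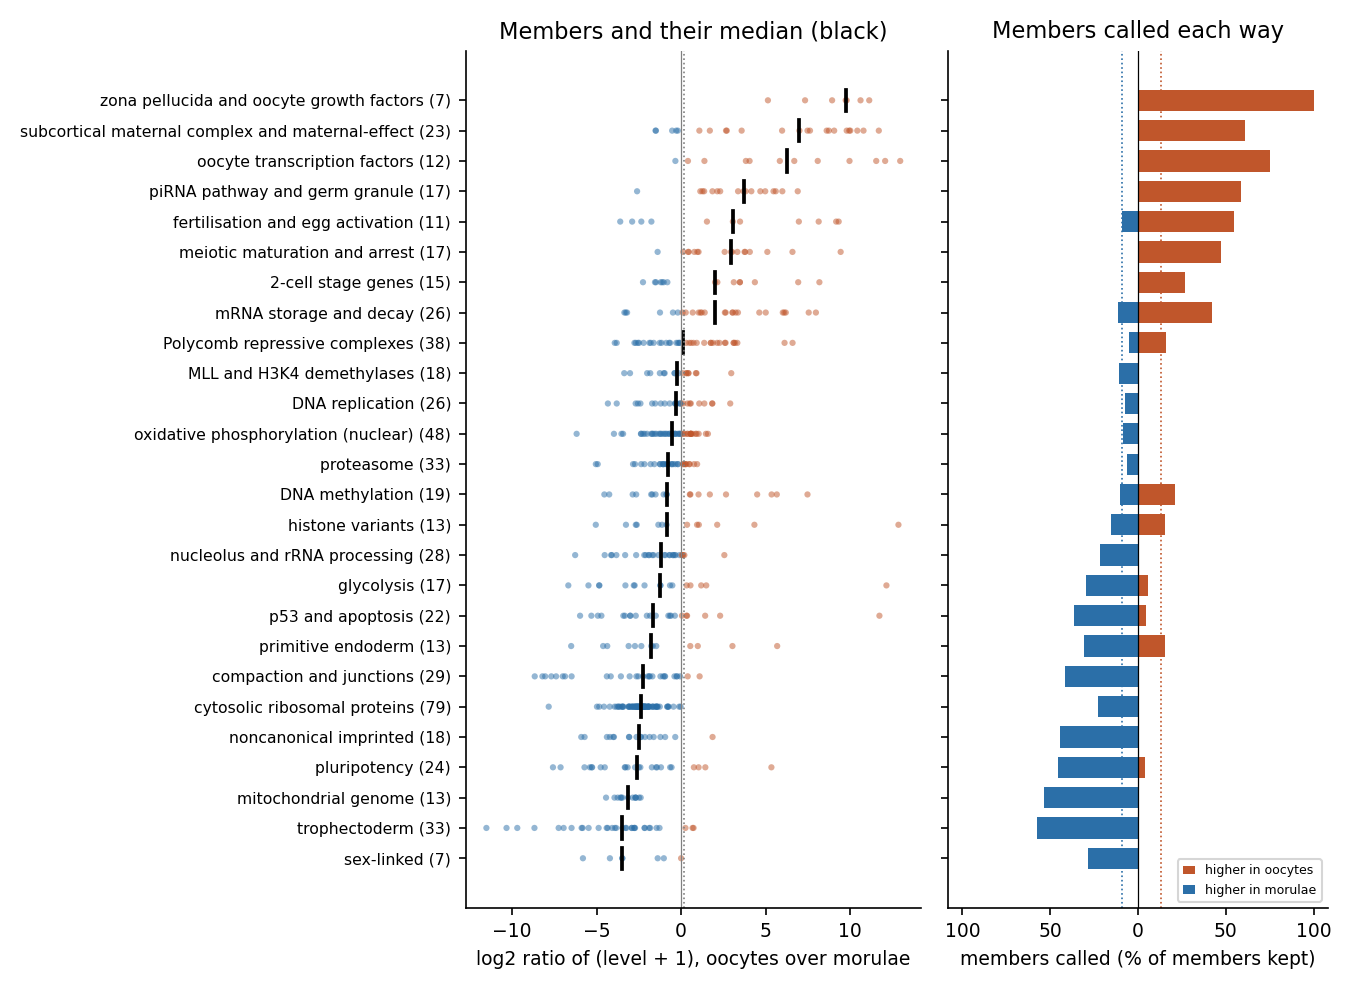
Left, the log2 ratio of levels plus 1 (oocytes over morulae) of each kept member of the 26 gene lists with at least 5 kept members (points), and the list median (black); the number of kept members is in brackets and the dotted line is the median of all kept genes. Right, the percentage of members called higher in each stage, with dotted lines at the 12.8% and 9.23% of all kept genes; the zona list lies at the oocyte end and the trophectoderm list near the morula end.

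Several families had different members at a high level in each stage, as the plot of related genes shows. Obox1, Obox2, Obox5 and Obox7 were higher in oocytes, whereas Obox6, a gene of the same family, was higher in morulae, at 0.75, 0.494 and 0.419 against 11.6 to 107 (median 33.6). Lactate dehydrogenase had Ldhb at 8662, 7651 and 8425 in oocytes and 0.0601 to 2.42 (median 0.861) in morulae, and Ldha at 0.885, 0.345 and 0.704 against 12.6 to 87.4 (median 47.5). Among connexins, Gja4, which couples the oocyte to granulosa cells, was at 398, 390.3 and 373 against 0 to 2.61 (median 0.546), while Gja1 and Gjb5 had oocyte medians of 0.105 and 0 and morula medians of 224 and 87.8. In the Pramel and Pramef family, Pramef12 was higher in oocytes, at 106, 116 and 109 against 6.49 to 15.1 (median 9.12), but was under the threshold on the deposited values, at 2.87. Pramel4, Pramel6 and Pramel7 were the reverse, with medians of 0.285, 0 and 0 in oocytes and 406, 324 and 206 in morulae.

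**Figure D4:**
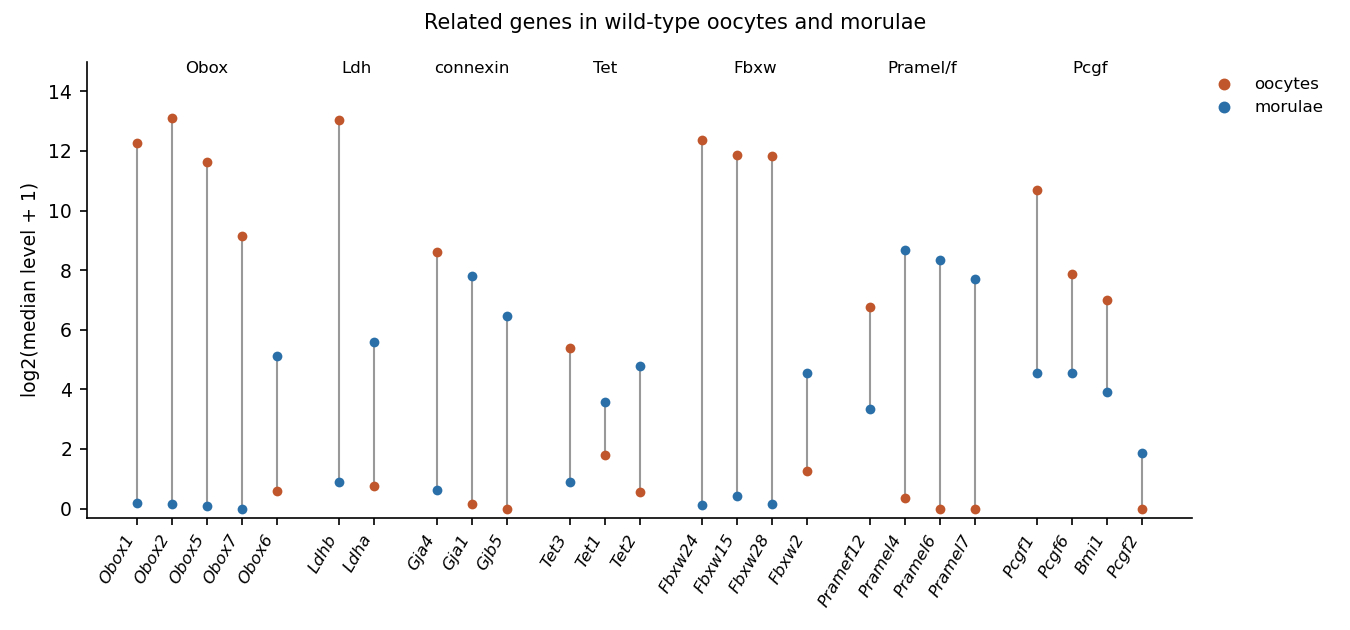
Log2 of the median level plus 1 of related genes in wild-type oocytes (3 libraries) and wild-type morulae (10 libraries), joined by a line for each gene. In the Obox, Ldh, connexin, Tet, Fbxw and Pramel groups at least 1 member was called higher in oocytes and at least 1 in morulae, while in the Pcgf group 0 were called higher in morulae.

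The translation machinery stood lower in oocytes as a share of the library. All 79 cytosolic ribosomal protein genes were kept, 18 were called higher in morulae (background 9.23%) and 0 in oocytes, and their median log2 ratio was -2.37. The count called higher in morulae was 39 on the deposited values and 14 with median-ratio scaling. In 76 of 79 every morula library lay above every oocyte library, against 34.8% of all kept genes. Together they held 37781 to 39563 in the oocytes and 150494 to 203112 in the morulae. Rpl9 was lowest against the morulae, at 9.66, 11.5 and 7.53 against 1905 to 3073 (median 2419), and Rps3 was at 39.3, 43.7 and 38.1 against 780.3 to 1109.8 (median 947). Rpl5, with 46.6% of its exon bases shared with another gene, was at 1932, 1828 and 1889 against 1612 to 2097 (median 1926), with overlap. Ribosomal protein genes have many processed copies that can share reads with them, so single ratios and the list median are uncertain. Only 9 of the 79 have copies named after them in the tables, and with those copies added the median was -2.45. Copies under other names were not added, so the ratios of the other 70 genes could not change. This median therefore cannot show how far copies matter.

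Nucleolar genes, which make and process ribosomal RNA, had 6 of 28 members higher in morulae (background 9.23%) and 0 in oocytes, with a median log2 ratio of -1.17. Fbl, the methyltransferase fibrillarin, was at 8.65, 12.3 and 9.39 in oocytes and at 201 to 283 (median 237) in morulae, and Ubtf, which activates RNA polymerase I, at 1.8, 1.6 and 1.83 against 37.9 to 68.6 (median 48.2). Npm1, a nucleolar chaperone, was closer, at 870.4, 884 and 900.4 against 1052 to 2736 (median 1419.6).

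Energy metabolism showed transcripts of the mitochondrial genome on the morula side. All 13 of its protein genes had every morula library above every oocyte library, against 34.8% of all kept genes. Of them 7 were called higher in morulae, against 9.23%, and 12 on the deposited values; 0 were higher in oocytes. Together they held 8967 to 10685 in oocytes and 48145 to 119701 in morulae. ND1, a subunit of complex I, was at 441, 464 and 441 against 4909.9 to 11948 (median 6767). With the second oocyte set ND1, ND3 and ND4 were under the threshold, at -2.97, -2.54 and -2.74. COX1, the core of complex IV, was at 905, 924 and 1058 against 4881 to 10520.4 (median 6703) and was not called. Nuclear genes of oxidative phosphorylation were closer to level: of 48 kept, 4 were higher in morulae, a share near the background of 9.23%, and 0 in oocytes, with a median log2 ratio of -0.52. The 4 were Atp5d, Atp5g3, Cyc1 and Uqcrc1, of which Uqcrc1, a core subunit of complex III, was at 4.26, 3.18 and 1.68 against 228 to 392 (median 301).

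Of 17 kept glycolysis genes, 5 were higher in morulae (background 9.23%) and 1, Ldhb, in oocytes (background 12.8%). Their median log2 ratio was -1.23. Slc2a3, a glucose transporter, was at 0.03, 0 and 0.015 in oocytes and at 68.6 to 156 (median 102) in morulae. Hk2, the hexokinase that traps glucose, was at 0.3, 0.405 and 0.374 against 20.3 to 62 (median 38.6), and Gapdh at 35.4, 29.6 and 23.1 against 126 to 432 (median 299); Gapdh was under the threshold with median-ratio scaling, at -2.96. Proteasome and DNA replication genes had 2 of 33 and 2 of 26 kept members called higher in morulae, shares near the background of 9.23%, and 0 and 0 higher in oocytes. On the deposited values 4 of 33 proteasome genes were called. Psmb9 and Psmd13 were the 2 proteasome genes, and Psma2, a core subunit, was not called at 1739.7, 1696 and 1701 against 679.6 to 1205 (median 997). Pcna, the replication clamp, was at 206, 227 and 227 against 92.5 to 239.8 (median 157), and Mcm2, a subunit of the replicative helicase, at 30.6, 34.2 and 33.2 against 24.2 to 47.3 (median 33.1), both with overlap. The median log2 ratio of the replication list was -0.28 and turned to 0.04 with median-ratio scaling. The 2 called members of it were the cyclins Ccnd3 and Ccne1, with Ccne1 at 1.84, 4 and 1.87 against 40.2 to 77.1 (median 56.7).

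Enzymes of DNA methylation and demethylation differed by member. Of 19 kept, 4 were higher in oocytes and 2 in morulae, against backgrounds of 12.8% and 9.23%, with a median log2 ratio of -0.84. On the deposited values 4 of 18 were called higher in morulae. Dnmt1, the maintenance methyltransferase, was at 416, 434 and 429 in oocytes and at 6.34 to 12.1 (median 9.52) in morulae. Uhrf1, which recruits it, was not called at 112, 121 and 113 against 8.41 to 36.2 (median 17.1). Dnmt3l, the cofactor of new methylation in oocytes, was close, at 100.3, 101 and 99.6 against 54.9 to 102 (median 69.7), with overlap. Tet3, the dioxygenase of the zygote, was at 37.8, 43.3 and 40.9 against 0.36 to 1.26 (median 0.851), whereas Tet2 was at 0.39, 0.599 and 0.464 against 24.3 to 33.9 (median 26.8) and Tet1, not called, at 1.87, 2.47 and 2.86 against 8.06 to 17.7 (median 10.8). Zfp57, which guards imprints, was at 899, 899 and 939 against 2.47 to 6.42 (median 4.06). Mbd3l2 was the other gene on the oocyte side. Tdg, a glycosylase that removes oxidised methylcytosine, was at 0, 0.03 and 0 against 8.9 to 27.2 (median 22.2).

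Polycomb genes, the subject of the series, were spread over both sides. Of 38 kept, 6 were higher in oocytes and 2 in morulae, shares of which the background is 12.8% and 9.23%, and the median log2 ratio of 0.11 turned to -0.34 on the deposited values and to -0.04 with quantile normalization. The counts also moved, to 2 higher in oocytes and 3 in morulae on the deposited values and to 4 and 2 with quantile normalization. Pcgf1, a subunit that defines 1 variant form of Polycomb repressive complex 1, was at 1640.0, 1727 and 1612 in oocytes and at 17.3 to 33.2 (median 22.6) in morulae. Pcgf6, of another variant form, was at 221, 238 and 232 against 14.3 to 33.5 (median 22.2); its log2 ratio of 3.33 was 2.75 on the deposited values, under the threshold. Bmi1, a subunit of canonical complexes, was at 127, 128 and 133 against 10.7 to 20.1 (median 14), with a log2 ratio of 3.10 that was 2.53 on the deposited values. Rnf2, the catalytic ubiquitin ligase, was not called at 56.4, 58.9 and 55.3 against 15.6 to 46.3 (median 33.4), although no library overlapped. Its relative Ring1 had medians of 0.03 and 5.96, and Pcgf2, the relative of Bmi1, 0 and 2.66; neither was called. In the second oocyte set Ring1 was at 5.06 and 4.89, within the morula range of 4.65 to 8.89.

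Subunits of Polycomb repressive complex 2, which methylates H3K27, lay nearer to each other. Ezh2, its methyltransferase, was at 208, 222 and 212 in oocytes and at 50.9 to 81.8 (median 61.8) in morulae, Eed, which reads the mark, at 213, 199 and 197 against 70 to 111 (median 76.4), and Suz12, its scaffold, at 70.6, 72.9 and 72.4 against 56.2 to 119.9 (median 82.3), with overlap for Suz12. AU022751, the symbol used here for Ezhip, an inhibitor of Ezh2, was at 438, 450.0 and 398 against 0.611 to 7.53 (median 3.55). The remaining 2 on the oocyte side were Phc2, a canonical subunit, and Phf1, an accessory subunit; Phc2 was named after its values were seen. On the morula side stood E130012A19Rik, the symbol used here for Epop, and E2f6, a repressor that joins the Pcgf6 complex, at 0.21, 0.674 and 0.359 against 14.7 to 27.7 (median 19.6).

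Kmt2b, which encodes MLL2, was low and overlapping in both stages, at 6.64, 7.73 and 7.43 in oocytes and at 4.11 to 13.7 (median 5.8) in morulae. Of 18 kept genes of MLL complexes and H3K4 demethylases, 0 were higher in oocytes and 2 in morulae, against backgrounds of 12.8% and 9.23%. The median log2 ratio of -0.26 turned to 0.22 with median-ratio scaling, where 1 member was called in each direction. The 2 were the demethylases Kdm5a and Kdm5b, with Kdm5b at 1.84, 1.93 and 2.23 against 21.9 to 34 (median 29.1); Kdm5a had 0.599 and 12 and was under the threshold with the second oocyte set, at -2.85. Kdm1b, the demethylase that imprinting in the oocyte needs, was at 45, 41.7 and 32.7 against 1.63 to 6.58 (median 4.45), a log2 ratio of 2.97 that passed the threshold without oocyte replicate 3, at 3.02. Among 13 kept histone genes 2 were higher in each stage, against backgrounds of 12.8% and 9.23%; on the deposited values 3, and with median-ratio scaling 1, were higher in morulae. H2afz, which encodes the variant H2A.Z, was at 51.4, 72.3 and 49.3 in oocytes and at 1381 to 2237 (median 1728) in morulae, and Hist1h2bc, an H2B gene, at 506, 483 and 486 against 10.1 to 36.5 (median 23.1).

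Noncanonically imprinted genes, known for silencing of the maternal allele by H3K27me3 from the oocyte, were low in oocytes. Of 18 kept, 8 were higher in morulae (background 9.23%) and 0 in oocytes (background 12.8%), with a median log2 ratio of -2.51. The list summed to 9.62 to 10.7 in oocytes and to 229 to 289 in morulae. Slc38a4, an amino acid transporter, was listed at 0 in every oocyte library and lay at 42.2 to 84.7 (median 58.8) in morulae. Sfmbt2, a Polycomb-group gene of the placenta, was at 0.045, 0.015 and 0.105 against 7.59 to 28.1 (median 20.8). These values do not separate the parental alleles.

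Of 22 kept genes of the p53 pathway and apoptosis, 8 were higher in morulae (background 9.23%) and 1 in oocytes (background 12.8%). Their median log2 ratio was -1.66. Bcl2l10, a survival protein of the oocyte, was at 3551, 3304 and 3559.8 in oocytes and at 0 to 0.711 (median 0.0451) in morulae. Cdkn1a, the cell cycle inhibitor p21, was at 1.47, 1.21 and 0.719 against 87.4 to 189.6 (median 138), and Phlda3, a p53 target, was listed at 0 in oocytes and lay at 24.9 to 58.4 (median 38.5) in morulae. Mcl1, a survival protein of the BCL2 family, was at 1.48, 1.42 and 1.11 against 51.1 to 76.6 (median 62.4). Bax, which permeabilises mitochondria, was at 41.1, 43.4 and 40.2 against 290.4 to 409 (median 337), a log2 ratio of -3.01 at the edge of the threshold. It was under it at -2.69 with median-ratio scaling, -2.87 with centring by exon length, -2.89 with an added constant of 5 and -2.91 with the second oocyte set. It was also under it, at -2.97 to -2.99, without oocyte replicate 1 or 3 or without morula replicate 1, 7, 8, 9 or 10. Trp53 itself was not called, at 20.6, 21.3 and 19.6 against 27.3 to 57.1 (median 35.3).

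Genes known for the 2-cell stage, the time of major genome activation, were looked at in both groups. Of 15 kept, 4 were higher in oocytes (background 12.8%) and 0 in morulae, with a median log2 ratio of 2.01; on the deposited values 2 of 15 were called. Arg2, an arginase, was at 585, 597 and 579 in oocytes and at 0 to 3.93 (median 1.02) in morulae, and Tcstv1, a 2-cell gene of a multicopy family, at 233, 215 and 175 against 0 to 9.02 (median 0.771). Sp110, a nuclear body protein, and Tcstv3 were kept from a call by 1 morula library: Sp110 was at 301, 339 and 292 in oocytes and at 28.1 to 502 (median 33.8) in morulae, and Tcstv3 at 49.3, 54.6 and 49.5 against 0 to 55.8 (median 1.45). Without morula replicate 9, which holds both of these highest values, both were called, with log2 ratios of 3.12 and 4.38. Zscan4d and Zscan4f, near-identical copies whose split is uncertain, were under the threshold on the deposited values, at 2.95 and 2.94.

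The 10 morula libraries differed among themselves. The 2-cell list summed to 753 in replicate 9 and to 41.7 to 158 in the other 9, and 11 of its 23 genes in both tables were highest in replicate 9. Some of the 11 lay near 0, such as Tdpoz3 at 0.0601, and the share of all kept genes highest in that library was not counted. The Zscan4 genes and Duxf3 were not among the 11, with Zscan4f at 4.29 in replicate 9 and up to 7.15 in the others. Without Sp110 the list summed to 251 in replicate 9, against at most 125 in the others. The same library had the lowest Krt8 (327) and the lowest trophectoderm sum (5584, against 7219 to 11692) and the highest Zp3 (13.4). The sum over 4 oocyte lists (zona and growth factors, fertilisation, maternal-effect and meiosis) was 7107 in it and 6185 to 9081 in the others, a sum that abundant genes not called between the stages, such as Dppa3 (2680.4 in replicate 9) and Cd9 (1920.5), largely set. In all, 3 relations across the 10 libraries were tested, between the summed level of the union of those 4 lists and 3 other sums. The pluripotency sum was likewise set largely by 1 gene not called between the stages. Dppa5a made up 8530 of 10036 in replicate 8 and 4879 of 6307 in replicate 4. In the trophectoderm sum Fabp3 made up 3472 of 5584 in replicate 9, 6262 of 11158 in replicate 8 and 4435 of 11672 in replicate 5. For the pluripotency list Pearson's r was 0.52 (p = 0.121, adjusted p = 0.363) and Spearman's rho 0.52 (p = 0.133, adjusted p = 0.400) by a two-sided permutation test, and r was 0.59 without the 2 libraries farthest from the median. With lists summarised by mean log2 levels r was -0.10 for pluripotency (adjusted permutation p = 0.785) and 0.63 for trophectoderm (adjusted permutation p = 0.149), so both values rest on how a list is summarised. The trophectoderm list gave r of 0.25 (p = 0.491, adjusted p = 0.564) and rho of 0.28 (p = 0.427, adjusted p = 0.538), and r of 0.34 without those 2, by the same permutation test. With the 2-cell list r was -0.24 (p = 0.564, adjusted p = 0.564), rho -0.22 (p = 0.538, adjusted p = 0.538), and r -0.36 without those 2, by the same permutation test. None of the 3 passed an adjusted p of 0.05.

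Genes of the sex chromosomes split the morula libraries evenly. Ddx3y, a helicase gene of the Y chromosome, was at 20.2 to 28.5 in 5 libraries and at 0 to 0.0100 in the other 5, and Eif2s3y at 20.1 to 31.7 and at 0 to 0.270. Xist, the RNA that silences an X chromosome, was at 1.74 to 11.6 in the first 5 and at 23.3 to 67.8 in the second 5. Tsix, its antisense partner, was at 2.03 to 13.9 and at 95.8 to 174, but without strand its reads cannot be told apart from those of Xist. All 3 oocyte libraries listed Xist, Ddx3y and Eif2s3y at 0. Rlim, an X-linked regulator of Xist, had medians of 18.9 in both stages.

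**Figure D5:**
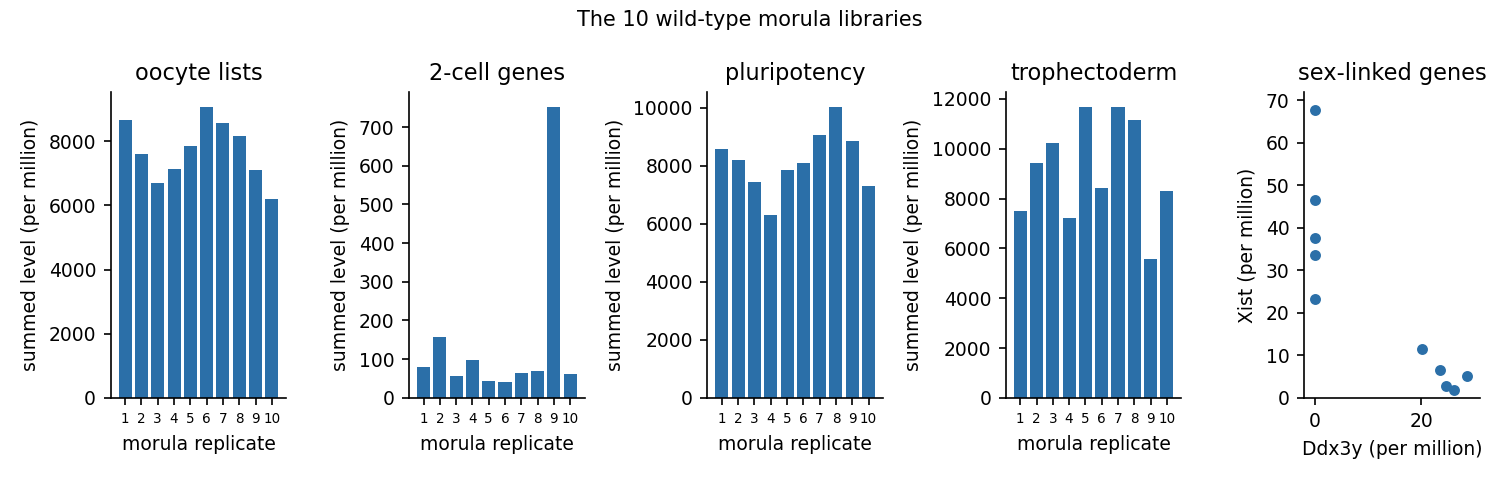
The 10 wild-type morula libraries: bars give the summed levels of the 4 oocyte lists together, the 2-cell, pluripotency and trophectoderm lists in each replicate, and points give Xist against Ddx3y, each point 1 library. Replicate 9 is highest for the 2-cell list (753) and lowest for trophectoderm (5584), and the libraries form 1 set with Ddx3y over 20 and 1 set at or near 0.

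A second set of wild-type oocytes gave levels that the choice of genes did not use. These were 2 libraries of full-grown oocytes, each of 10 pooled cells with the zona pellucida removed, from the control group of the PRC1 catalytic-dead set in a table of its own; they were set against the same morulae, so the comparisons share those. Rank correlations with the first oocyte libraries were 0.981 to 0.984. Of the 1972 genes higher in the first oocytes 1875 (95.1%) kept the call, and of the 1420 higher in morulae 1286 (90.6%); with the second set 13.7% and 8.61% of its 15642 kept genes were called. Gdf9 was at 2932 and 3368 there, Zp3 at 2262 and 3791, and Pcgf1 at 2169 and 1861. Krt8 was at 3.24 and 1.27, Cd63 at 0.418 and 0.271, Mt1 at 2.52 and 2.35, and Cdx2 was listed at 0. Both oocyte sets thus lay on the same side of the morulae for these genes.

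Position and annotation had values beside the calls. The share of kept genes called higher in oocytes ran from 7.91% on chromosome 11 to 17.2% on chromosome 6 among the autosomes and was 14.2% on the X chromosome. Over 10 equal groups by exon length the median log2 ratio of kept genes lay between -0.10 and 0.53, and the share called higher in morulae between 3.57% for the longest and 13.5%. The share called higher in oocytes lay between 8.89% and 17.0%, at 17.0% for the shortest and 9.02% for the longest. More than 50% of the exon bases were shared with another gene in 1.59% of genes higher in oocytes, 2.98% of those higher in morulae and 2.19% of all kept genes. An exact 0 in tables of this kind can be a failed estimate; 617 kept genes were listed at 0 in every oocyte library and 905 in every morula library. Nme2, a nucleoside diphosphate kinase at 3.94, 3.78 and 3.07 in oocytes and 1429 to 2015 (median 1730.5) in morulae, shares 48.9% of its exon bases with another gene, and its ratio is uncertain for that reason.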

How the data were processed

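RNA-seq levels of 3 wild-type oocyte and 10 wild-type morula libraries were used as the authors deposited them. The submitters' processing notes list Trim Galore 0.6.4, STAR 2.7.3 and 2.7.6, featureCounts 1.6.0, RSEM 1.3.1, with mm10 and GRCm38 as builds; how these steps map onto the tables was not stated. The oocyte values were deposited under the title RPKM, reads scaled to gene length and depth, and sum to 667096 to 667952 in a library. The morula values carry the same title but sum to 999474 to 999744 in each library, so the deposited values were taken as TPM. Dates stood in place of symbols in 27 oocyte rows, which were dropped. No depth was recorded, so precision rests on the spread between libraries.

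Values of the 35815 shared genes were rescaled in each library to 1000000. Genes with a median of at least 1 in at least 1 stage were kept, and calls needed a ratio of 8 between medians plus 1 with no overlap between libraries. Because the tables were normalised separately, no test was made between them. Relations across morulae were tested with 100000 permutations and Benjamini-Hochberg adjustment over 3 relations. The procedure was tested on simulated data. Python 3.11.15, pandas 2.3.3, numpy 2.4.6, scipy 1.17.1 and matplotlib 3.10.9 were used. Promoters came from the RefSeq table of GRCm38.p6, in which Gdf9 has no entry.

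Named genes were the 20 with the largest log2 ratio each way, at a median of at least 20, up to 4 called members each way of each list, the 4 markers, the 10 highest genes of each stage, the 3 highest members of each name family, and Pcgf1, Pcgf6, Kmt2b and Rnf2. Other list and family members were named after their values were seen. The groups, lists and rules were chosen with earlier results of these data known. Alternatives covered the added constant, filter, ratio, scaling, summary, oocyte set and each left-out library; centring within groups of exon length was chosen after seeing the data. Some members of the lists are not reported here.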

Additional observations from a re-analysis of the deposited data

Results flagged for a closer look

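In 39 of 212 summed lists and named genes, 1 of the 10 morula libraries lay apart from the other 9 by more than Dixon's critical value at the 95% level. Chance gives such a gap in about 1 in 20 groups of normally distributed values. The levels used here were not log-transformed and many lie near 0, and the items are not independent, since list members share libraries. The 1 in 20 is therefore no expected rate for these items, and the 39 cannot be read against it. The reasons were not tested.

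Replicate 9 was the library apart for the largest set of items. Its summed levels were 753 for the 2-cell list, with the next library at 158, 14.1 for the zona list (next 8.43) and 6889 for the nucleolar list (next 5345). Among 2-cell genes Sp110 was at 502 there (next 68.4) and Tcstv3 at 55.8 (next 13.7). Oocyte genes highest in it were Zp3 at 13.4, Aurkc at 25.02, Npm2 at 4.07, Eif4e1b at 2.03, Pabpc1l at 0.661, Klf17 at 13.3 and Mbd3l2 at 8.85. Npm1 at 2736 and Trp53 at 57.1 were also highest in replicate 9, and Tdg at 8.90 was lowest.

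The other libraries stood apart for single genes or lists. Replicate 4 was highest for Kmt2b at 13.7, with the next library at 8.38, for Oas1h at 2.64, Zbed3 at 2.71 and Fbxo43 at 0.390, and for the sperm RNA list at 9.70. Replicate 10 was lowest for the MLL list, at 822 against 975 in the next library, and highest for Mael at 88.7, Uhrf1 at 36.2, Zp2 at 1.46 and Pabpn1l at 0.541. Replicate 2 was highest for Tcstv1 at 9.02 and Zscan4d at 7.38. Replicate 7 was highest for Dnmt3l at 102.2, Gja4 at 2.61 and Bcl2l10 at 0.711. Replicate 3 was highest for Cnot6l at 3.33, Obox1 at 1.05, Bmp15 at 1.09, Oosp1 at 0.441 and Astl at 0.451. Levels under 2 came from replicate 8 for Prm2, at 1.79, and Obox2, at 0.501, from replicate 1 for Henmt1, at 0.270, and from replicate 5 for Mos, at 0.1001.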

How the results depend on the processing

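The numbers of genes called depended on the ratio and the added constant. Against 1972 genes higher in oocytes and 1420 in morulae, a constant of 0.1 gave 3768 and 2753, a constant of 5 gave 863 and 570, a ratio of 4 gave 3482 and 2712, and a ratio of 16 gave 1076 and 715. A difference of at least 25 percentile points in place of the ratio gave 3147 and 3248, of which 1853 and 1336 were among the genes of the ratio rule. The classes at least 20 in 1 stage and under 0.5 in the other, or at least 20 in both, held 319, 169 and 2153 genes. The other alternatives left both counts within 1.5 times, among them the deposited values (1426 and 1765) and median-ratio scaling (2344 and 1235), and centring within groups of exon length gave 1799 and 1240 of 13734 genes. In none of these did a gene called in 1 stage become called in the other.

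Without single libraries the counts ran from 1962 to 1994 for oocytes and from 1410 to 1449 for morulae. They ran from 726 to 755 and from 424 to 467 for the classes present in 1 stage, and from 3261 to 3404 for genes high in both. With all libraries these classes held 721, 424 and 3258 genes. Every library must pass in these classes, so leaving 1 out could only keep or enlarge them, and their ranges are no measure of stability. The correlations of the oocyte lists across morulae ran from -0.39 to -0.15 for the 2-cell list, from 0.45 to 0.63 for pluripotency and from 0.12 to 0.38 for trophectoderm.

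List medians near 0 changed sign with the scaling. DNA replication was at 0.0430 and the MLL list at 0.22 with median-ratio scaling, Polycomb at -0.34 on the deposited values and at -0.0395 with quantile normalization, and Zfp-named genes at -0.0683 on the deposited values. The correlation with pluripotency was -0.10 when lists were summarised by mean log2 levels. Of 192 called named genes, 54 were under the threshold in at least 1 of 26 alternatives, 49 of them in an alternative other than the ratio of 16, and 0 reversed. No paired analysis was possible because the 2 stages are separate samples in separate tables, replicate numbers tie no oocyte library to a morula library, and the comparison between them has no test. The stages cannot be told apart from the tables, depth is unknown, and low levels rest on the added 1.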
